A study of Mus musculus with 18 samples.

Results

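Healthy liver after alginate oligosaccharide (AOS) alone was compared with control liver. The 2 groups were AOS (AOS at 10 mg/kg) and Con (control), each with 3 libraries of liver RNA from ICR mice of 10 weeks. They belong to a series of 18 liver libraries in 6 groups, in which STZ mice received streptozotocin, a toxin of insulin-producing beta cells, and STZ+AOS mice received both agents. A10-FMT and Con-FMT mice received STZ and then intestinal microbiota from AOS-dosed or control donors. No STZ was named for the AOS and Con groups. By the methods of the study the mice were male and Con received regular diet and saline. Route and length of the AOS dosing of the AOS liver group are not given in the sources used here. The members were all genes with at least 1 RPKM (a read count divided by the length of the transcript and by the mapped reads) in at least 3 of the 6 libraries, which were 10142 of 19057 gene symbols.

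AOS are short chains of mannuronic and guluronic acid cut from alginate, a polysaccharide of brown algae. Mammals lack enzymes that digest alginate, and the chains reach the intestinal bacteria. The liver receives the blood that leaves the intestine. It makes glucose and ketone bodies in fasting, exports sterols and bile acids into bile, secretes most plasma proteins, and raises acute-phase proteins under inflammation.

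The tissue label was checked with 3 genes of hepatocyte secretory products. Albumin (Alb), apolipoprotein A-I (Apoa1) and transthyretin (Ttr) did not pass the test between the groups, and summed RPKM of the 6 hepatocyte markers ran from 55336 to 74032 in Con and from 65044 to 70739 in AOS. Of 6 adipocyte markers, Adipoq, Plin1 and Lep were at 0 in the 6 libraries and 5 stayed under 1 RPKM. The sum of the list still ran from 2046 to 3894 RPKM in Con and from 3484 to 4071 RPKM in AOS, nearly all from the 1 tested marker. In bulk tissue, fewer cells of a type and less RNA per cell cannot be told apart. The absolute depth of RPKM libraries is unknown, but ratios of low values put the worth of 1 read in the other 5 libraries at 1.00 to 1.05 times that in Con library 1.

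The third library of each group lay close to a weighted mean of the first and second, and this bears on every result that follows. Among genes with a mean of at least 5 RPKM, 104 differed by more than 2-fold between Con libraries 1 and 2. Con library 3 lay between these values in 99.0% of them, at a median weight of 0.527 on library 1 (interquartile range 0.485 to 0.573). In AOS, library 3 lay between libraries 1 and 2 in 96.7% of 92 such genes, at a median weight of 0.359 on library 1 (0.300 to 0.409). The other 16 libraries stood between the remaining libraries of their groups in 0% to 84.4% of such genes, highest for Con-FMT library 3, where the weights spread from 0.190 to 0.633.

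Single genes show the pattern. The globin gene Hbb-bs had 0.90 RPKM in AOS library 1, 133 RPKM in AOS library 2 and 84.6 RPKM in AOS library 3, where the weighted mean of the first and second was 85.6 RPKM. The serum amyloid gene Saa2 had 7018, 300.04 and 3826 RPKM in Con libraries 1, 2 and 3, against a weighted mean of 3842 RPKM. The median distance of Con library 3 from its weighted mean was 0.053 on the log2(RPKM + 1) scale in the 104 genes, and it was 0.69 from library 1 and 0.71 from library 2. The labels name the third libraries as samples of their own and do not mention mixing. Whether the third libraries hold RNA of other mice was not tested. If they do not, each group has 2 independent libraries, the p-values from 6 libraries are too small, and SDs over 3 libraries understate the spread. Counts of called genes, and of list members whose groups do not overlap, are therefore given with and without the third libraries, a choice made after the data were seen.

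**Figure D1:**
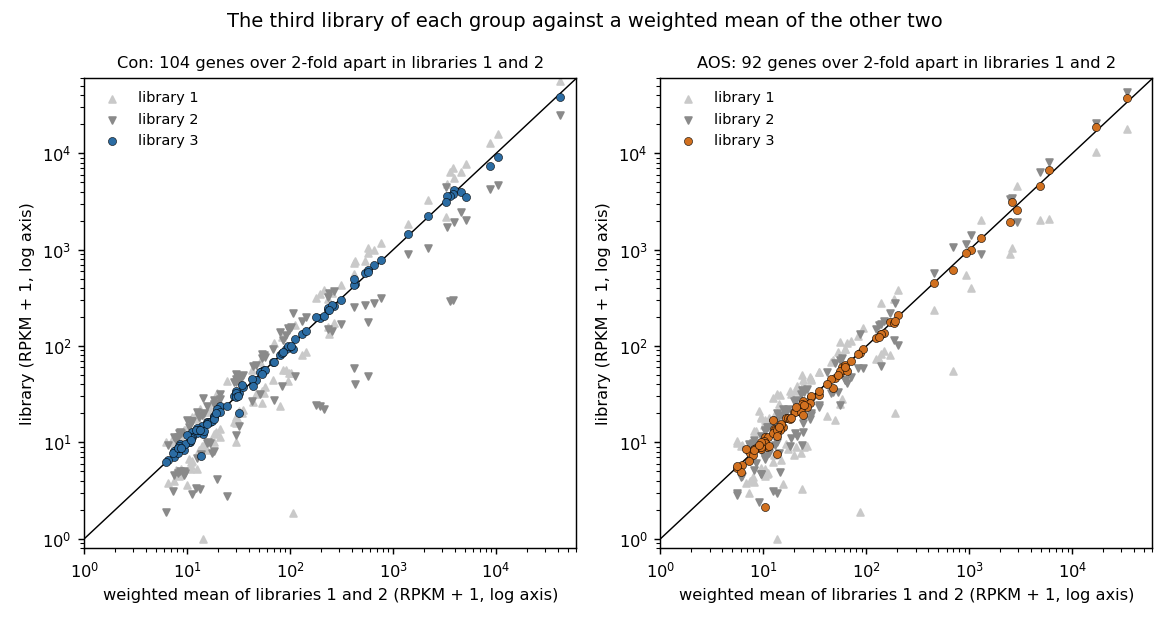
RPKM + 1 (log axis) of each library against the weighted mean of libraries 1 and 2 of its group (log axis), for genes over 2-fold apart between those libraries, 104 in Con and 92 in AOS. Grey triangles are libraries 1 and 2, coloured circles are library 3, and the line marks equality; the circles follow the line while the triangles lie on both sides of it.

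AOS against Con answers which liver transcripts differ after AOS in mice without diabetes. With the 6 libraries, 41 of 10142 genes (0.404%) passed an adjusted p of 0.05 (limma on log2(RPKM + 1), Benjamini-Hochberg adjustment over all genes tested). Of these, 25 were higher in AOS (0.246% of genes tested) and 16 were lower (0.158%). They included raised sterol exporters (Abcg5, Abcg8), a hepcidin gene (Hamp2), fasting-associated genes (Pck1, Fgf21, Angptl4) and a nuclear receptor of the clock (Nr1d2), and lowered glutathione transferase (Gstp1), deiodinase (Dio1) and a steroid hydroxylase (Cyp21a1). Without library 3 of both groups, 0 of 10142 genes passed in limma (537 at an unadjusted p under 0.05, smallest adjusted p 0.209). There the 41 genes had unadjusted p from 0.00012 to 0.018 and adjusted p from 0.416 to 0.843. All 41 had groups without overlap in the 6 libraries, which fixes their direction and separation in any subset of these. "Rose" and "fell" below refer to the test of 6 libraries.

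The count moved with single libraries. It was 1 gene without Con library 3, 5 without AOS library 3, 17 without AOS library 2, 21 without Con library 1 and 215 without Con library 2. All 18 libraries in 1 fit share an estimate of spread with the more variable STZ groups. There 1 gene was called and 753 had an unadjusted p under 0.05. The called gene was not among the 41, whose lowest adjusted p in that limma fit was 0.079 (Nr1d2). The split of directions depended on scaling: 61.0% of calls were higher as deposited, and 47.8% of 92 calls (44 higher, 48 lower) after median-ratio scaling. Over all genes tested, the median change was 0.066 on the log2 scale. Changes were modest, with 34 of the 41 genes moving at least 1.5-fold and 9 at least 2-fold on the log2(RPKM + 1) scale, which understates changes of genes near 1 RPKM.

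**Figure D2:**
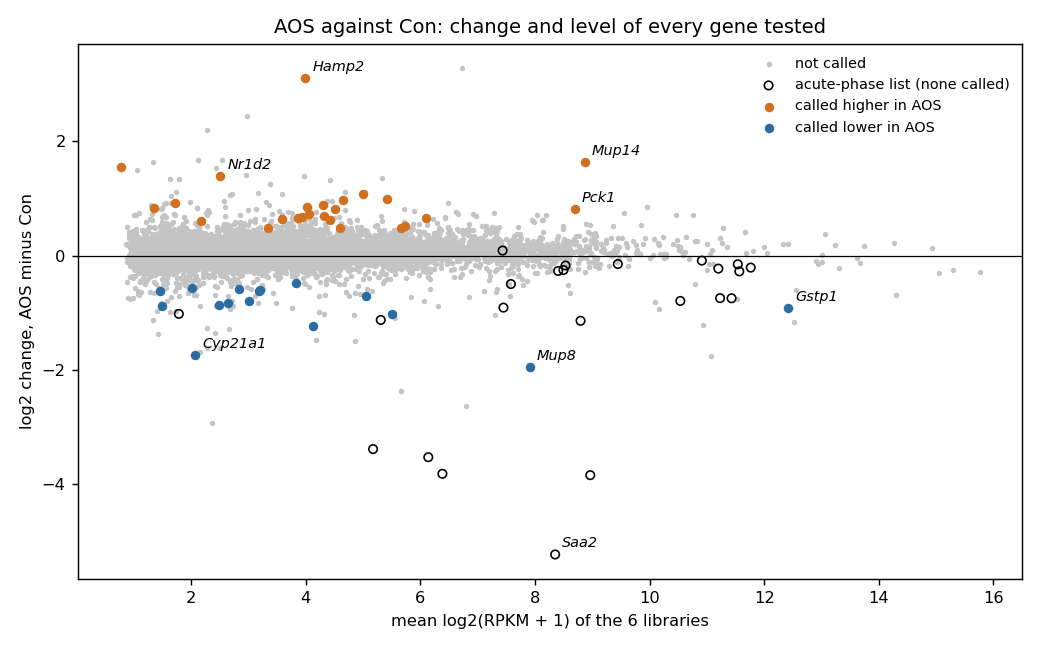
Log2 change (AOS minus Con) against the mean log2(RPKM + 1) of the 6 libraries for each of the 10142 genes. Orange points are the 25 genes called higher in AOS, blue points the 16 called lower, grey points were not called, and open circles are the 23 tested acute-phase genes, which reach -5.24 without being called.

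Without any threshold, the 3 AOS libraries lay wholly above the 3 Con libraries in 1986 genes (19.6%) and wholly below in 532 (5.25%). For the first and second libraries alone these were 2949 genes (29.1%) above and 826 (8.14%) below. Of all genes tested, 6900 (68.0%) had a positive change. Lists of genes are read against these shares below, and a second count in parentheses is that without the third libraries.

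Transcripts of the sterol exporter rose. Abcg5 and Abcg8 encode the partners of the heterodimeric transporter that moves cholesterol and plant sterols from hepatocytes into bile. Abcg8 had 11.2, 11.3 and 10.9 RPKM in Con and 20.4, 21.6 and 20.8 RPKM in AOS, a log2 change of 0.86 (SE 0.064, limma adjusted p 0.0046). The groups were far apart beside the spread of their libraries. Abcg5 had 17.7, 14.7 and 16.6 RPKM in Con and 34.1, 26.4 and 27.8 RPKM in AOS, a log2 change of 0.81 (SE 0.11, limma adjusted p 0.034). Without the third libraries the adjusted p was 0.435 for Abcg8 and 0.807 for Abcg5, and neither passed.

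The pair lies head to head on chromosome 17, Abcg5 at 84658234 to 84683011 on the minus strand and Abcg8 at 84676302 to 84700333 on the plus strand (GRCm38, GENCODE M21). Their exons overlap in this annotation through a longer Abcg8 transcript, so a read there may be counted for either gene. The 109 bases between the RefSeq starts of the pair, chr17:84683012-84683120 (plus strand, GRCm38.p6), are shown because both members changed and share this stretch. Capitals mark AGATAA on the minus strand, the core of a GATA motif. The stretch holds 2 of them. Of 32817 stretches of 250 bases upstream of RefSeq starts, 9.99% hold at least 1 on either strand. These are longer, so that share is not one for 109 bases. A match is a description and not a binding site.
Abcg5-Abcg8: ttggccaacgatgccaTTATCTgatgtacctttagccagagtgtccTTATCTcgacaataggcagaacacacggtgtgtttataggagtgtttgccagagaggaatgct

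Of 27 tested apolipoprotein and transport genes, 2 passed (the same exporters), 21 were positive and 8 (10) lay wholly above Con. Of 24 cholesterol synthesis genes 0 passed, 16 had a negative change and 4 (4) lay wholly below Con. The list median was 0.18 against Con library 1 and -0.26 against Con library 2, so its direction depended on the control library.

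Hamp2 had the largest change among called genes. It is a paralog of Hamp, the gene of hepcidin, which lowers iron export from cells. Hamp2 (chromosome 7, 30922372 to 30924681, minus strand) had 6.50, 2.96 and 4.32 RPKM in Con and 67.9, 31.8 and 44.7 RPKM in AOS, a log2 change of 3.12 (SE 0.30, limma adjusted p 0.0090). Each AOS library was above each Con library. Hamp itself, expressed far higher, had 2210, 4496 and 3113 RPKM in Con and 4564, 1927 and 2566 RPKM in AOS, a log2 change of -0.15 (adjusted p 0.85), with the groups overlapping widely. Transcripts of the paralogs are alike, and reads could be shared between them. Exons of Hamp2 also overlap those of Gm44662. Of 21 tested iron and heme genes, a list without Hamp2, 0 passed, 13 were positive and 5 (6) lay wholly above Con.

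A stretch of 150 bases upstream of the RefSeq start of each gene is shown because one paralog changed and the other did not pass. Both are on the minus strand of chromosome 7 (GRCm38.p6, RefSeq starts, moved upstream where a GENCODE exon begins earlier), at chr7:30924182-30924331 for Hamp2 and chr7:30944033-30944182 for Hamp. The Hamp2 stretch overlaps no exon but lies inside the GENCODE gene, which reaches upstream to 30924681. The Hamp stretch lies just outside its GENCODE gene, which ends at 30944032, so the positions of the stretches are not equivalent. They matched in 138 of 150 aligned bases (92%) with 0 gaps, and capitals mark the 12 bases that differ.
Hamp2: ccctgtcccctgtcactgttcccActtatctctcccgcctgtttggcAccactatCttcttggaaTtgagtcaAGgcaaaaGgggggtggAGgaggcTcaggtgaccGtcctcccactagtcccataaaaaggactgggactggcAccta
Hamp: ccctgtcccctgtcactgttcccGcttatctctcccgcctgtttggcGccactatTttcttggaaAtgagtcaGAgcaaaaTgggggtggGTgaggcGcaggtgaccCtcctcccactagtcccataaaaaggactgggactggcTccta

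Genes of the fasting response rose in part. Pck1, the first committed step of gluconeogenesis (chromosome 2, 173153048 to 173159273), had 287, 342 and 302 RPKM in Con and 540, 553 and 552 RPKM in AOS (log2 change 0.82, SE 0.097, limma adjusted p 0.017). Fgf21, a hormone released by the fasted liver (chromosome 7, 45613886 to 45615490), was low, with 0.98, 0.78 and 1.00 RPKM in Con and 2.81, 2.2 and 2.29 RPKM in AOS (log2 change 0.84, adjusted p 0.017). Fgf21 met the filter through the AOS libraries, since Con libraries 1 and 2 were under 1 RPKM. With 1 RPKM required in every library it was not tested. Angptl4, an inhibitor of lipoprotein lipase (chromosome 17, 33773750 to 33781830), had 17.3, 25.04 and 21.3 RPKM in Con and 45.1, 46.1 and 45.3 RPKM in AOS (log2 change 1.08, adjusted p 0.017). In these 3 genes the AOS libraries stood close together and above each Con library. Igfbp1 (log2 change 1.11, adjusted p 0.059) and the glucose-6-phosphatase gene G6pc (0.71, adjusted p 0.12) did not overlap between groups but did not pass.

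The lists around these genes held few passing genes. Of 12 gluconeogenesis genes, 12 had a positive change, where 68.0% of all genes did, 4 (4) lay wholly above Con and 1 passed. Of 21 genes of mitochondrial fatty acid oxidation and ketogenesis, 21 were positive with a median log2 change of 0.28, and 12 (13) lay wholly above Con. In this list 1 passed (Fgf21, which met the filter through AOS). Of 17 genes of peroxisomal and microsomal fatty acid oxidation, 17 were positive with a median of 0.32, 10 (11) lay wholly above Con and 0 passed. Cpt1a, the carnitine transferase of mitochondrial entry, had a log2 change of 0.42 (adjusted p 0.091). The size of these list medians depended on the control library: without the third libraries, fatty acid oxidation was 0.51 above Con library 1 and 0.13 above Con library 2, and the peroxisomal list 0.74 and 0.16, where all genes were at 0.14 and 0.020.

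Of 17 de novo lipogenesis genes, 0 passed, 16 were positive and 6 (6) lay wholly above Con. The desaturase gene Scd1 had 676, 815 and 740.04 RPKM in Con and 2033, 895 and 1328 RPKM in AOS (adjusted p 0.18). The list median was 0.52 in AOS library 1 and 0.16 in AOS library 2, each against the first and second Con libraries.

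In glucose use, the passing gene was Pfkfb3, which makes the glycolysis activator fructose-2,6-bisphosphate. It fell from 2.19, 2.42 and 2.60 RPKM in Con to 1.25, 1.24 and 1.18 RPKM in AOS (log2 change -0.61, limma adjusted p 0.027). The other 18 tested genes of glycolysis, fructose and glycogen did not pass, with 3 (3) of the list wholly above Con and 1 (1) wholly below. The glycogen branching gene Gbe1 (log2 change 0.58, adjusted p 0.058) was closest.

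Bile acid synthesis held no passing gene. Cyp7a1, the rate-limiting enzyme of bile acid synthesis, had 30.7, 24.3 and 27.5 RPKM in Con and 8.92, 16.9 and 14.3 RPKM in AOS (log2 change -1.02, SE 0.20, limma adjusted p 0.075), without overlap. Of 21 tested genes of synthesis, feedback and transport, 17 were positive, 11 (12) lay wholly above Con and 2 (2) wholly below. Those above included the canalicular pumps Abcb11 (log2 change 0.30, adjusted p 0.14) and Abcc2 (0.51, adjusted p 0.12).

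Genes of foreign-compound and steroid metabolism moved both ways. Cyp3a59 (chromosome 5, 146079257 to 146113287) had 15.8, 17.0 and 17.8 RPKM in Con and 33.0, 33.9 and 35.4 RPKM in AOS, a log2 change of 0.97 (SE 0.074, limma adjusted p 0.0046). Cyp3a13 (chromosome 5, 137892932 to 137921619), another cytochrome P450 of the same subfamily, fell from 27.0, 23.4 and 27.3 RPKM to 12.1, 8.95 and 10.4 RPKM, a log2 change of -1.23 (SE 0.11, limma adjusted p 0.0090). The 2 genes thus changed in opposite directions with no overlap in either. Cyp21a1, the 21-hydroxylase of adrenal steroid synthesis, which is low in liver, went from 6.86, 6.06 and 7.22 RPKM to 0.69, 2.2 and 1.25 RPKM (log2 change -1.74, adjusted p 0.017). Its exons overlap those of Tnxa, and AOS libraries were near the filter of 1 RPKM. Cyp21a1 was not tested with 1 RPKM required in every library, and did not pass in limma without the filter (adjusted p 0.076). The list of Cyp2 and Cyp3 drug-metabolism genes did not hold Cyp3a59. Of its 23 tested genes, 1 passed (Cyp3a13), 19 were positive, 8 (9) lay wholly above Con and 2 (2) wholly below.

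Gstp1, a pi-class glutathione transferase, was the most abundant gene that passed (chromosome 19, 4035407 to 4037985). It had 7599.7, 7303 and 7745 RPKM in Con and 3914, 4262 and 3798 RPKM in AOS, a log2 change of -0.92 (SE 0.13, limma adjusted p 0.034), and was called as the sole member among 19 tested AhR and NRF2 targets, of which 5 (5) lay wholly above Con and 2 (3) wholly below. The neighbouring family member Gstp3, named after its values were seen, had 19.3, 48.3 and 38.0 RPKM in Con and 54.7, 1054 and 611 RPKM in AOS. AOS library 2 was far above AOS library 1, and library 3 lay between them. The pi-class genes share much of their sequence, and how reads were divided among them is unknown. Of 21 antioxidant enzyme genes, 0 passed, 13 were positive, 5 (6) lay wholly above Con and 2 (2) wholly below.

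Thyroid, retinoid and amino acid genes were among the rest of the called genes. Dio1, the deiodinase that converts thyroxine to its active form (chromosome 4, 107291465 to 107307169), had 73.2, 54.5 and 66.4 RPKM in Con and 26.7, 34.6 and 32.1 RPKM in AOS (log2 change -1.03, SE 0.13, limma adjusted p 0.027). Rdh16f2, a retinol dehydrogenase family gene, had 31.7, 29.2 and 27.0 RPKM in Con and 65.3, 56.1 and 57.3 RPKM in AOS (log2 change 1.00, adjusted p 0.0090). Acmsd, which turns tryptophan breakdown away from NAD synthesis, had 10.8, 8.79 and 9.25 RPKM in Con and 4.66, 5.20 and 5.53 RPKM in AOS (log2 change -0.79, adjusted p 0.017). None of the 3 had overlapping groups.

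The carriers Slc7a2 for cationic amino acids (log2 change 0.89, limma adjusted p 0.017) and Slc38a2 for neutral amino acids (0.69, adjusted p 0.034) rose. Slc34a2, a phosphate carrier, fell by 0.88 on the log2 scale (adjusted p 0.011) at levels of 0.92 to 3.01 RPKM. Slc34a2 was not tested with 1 RPKM required in every library. Of 29 genes of amino acid breakdown and the urea cycle, 0 passed, 23 were positive, 12 (13) lay wholly above Con and 1 (1) wholly below.

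**Figure D3:**
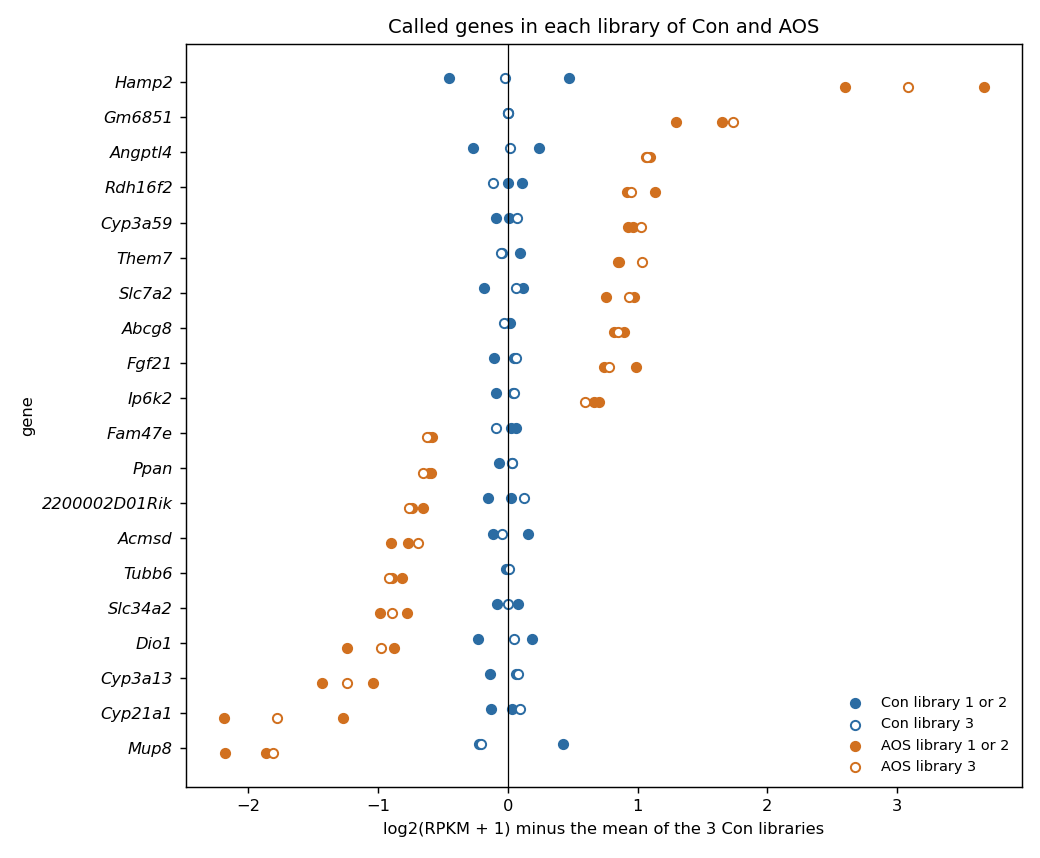
Log2(RPKM + 1) of each library minus the mean of the 3 Con libraries. Shown are the 10 rising and 10 falling called genes of smallest p that changed at least 1.5-fold without overlap between groups. Blue points are Con, orange points AOS, and open points the third libraries. The lack of overlap was a condition of the choice, and the changes run from -1.95 (Mup8) to 3.12 (Hamp2). Gm6851 and Fgf21 met the filter through the AOS libraries.

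Among major urinary proteins, pheromone carriers made by the male liver, Mup8 fell from 632, 405 and 408 RPKM to 103, 129 and 134 RPKM (log2 change -1.95, SE 0.19, limma adjusted p 0.0090). Mup14 rose from 215, 384 and 223 RPKM to 679, 912 and 906 RPKM (log2 change 1.64, SE 0.23, limma adjusted p 0.034). Transcripts of this family are nearly identical, so reads may be assigned to either gene and the opposite changes are uncertain. The list of growth hormone and male-biased genes did not hold Mup8 or Mup14. Of its 24 tested genes, 0 passed, 17 were negative and 5 (6) lay wholly below Con, against 5.25% (8.14%) of all genes. Mup20 had 6428, 2436 and 3988 RPKM in Con and 968, 1313 and 1286 RPKM in AOS (log2 change -1.75, adjusted p 0.069). The list median was -0.48 in AOS library 1 and 0.028 in AOS library 2, so 1 library carried it.

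Nr1d2 encodes REV-ERB beta, a repressor of the circadian clock whose transcript cycles over the day. Nr1d2 (chromosome 14, 18204054 to 18239127) had 2.05, 3.03 and 2.49 RPKM in Con and 10.4, 6.39 and 8.16 RPKM in AOS, a log2 change of 1.39 (SE 0.17, limma adjusted p 0.017). Its paralog Nr1d1 had 1.22, 3.68 and 2.72 RPKM in Con and 30.7, 10.0 and 16.9 RPKM in AOS, a log2 change of 2.45 that did not pass (adjusted p 0.056). In both genes AOS library 1 was highest and each AOS library exceeded each Con library. Of 17 tested clock genes, 1 passed, 3 (3) lay wholly above Con and 3 (3) wholly below, the latter including Usp2 (log2 change -0.67) and Cry1 (-0.59).

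Egr1, an immediate early transcription factor, fell from 8.50, 6.35 and 7.10 RPKM to 3.70, 3.21 and 4.13 RPKM (log2 change -0.83, SE 0.12, limma adjusted p 0.034). It was the sole one of 13 tested immediate early genes to pass, and 4 (4) of the 13, among them Junb (log2 change 0.30), lay wholly above Con and 2 (2) wholly below. Of 20 glucocorticoid and fasting response genes, 1 passed (Angptl4), 1 (1) lay wholly below Con and 9 (9) wholly above, among the latter Fkbp5 (log2 change 0.46, adjusted p 0.069) and Lpin1 (0.79, adjusted p 0.080).

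The acute-phase list held the largest absolute log2 change of all genes tested (Saa2), and none of its genes passed. Of 23 tested, 22 had a negative change, 6 (6) lay wholly below Con and the median was -0.74. Saa2, an amyloid protein of the acute phase, had the 7018, 300.04 and 3826 RPKM in Con already given, and 110, 23.7 and 54.0 RPKM in AOS (log2 change -5.24, SE 1.1, limma adjusted p 0.086). Saa1, Orm2 and Lcn2, further secreted proteins of the acute phase, had the same order in Con, with 6422, 296 and 3570 RPKM for Saa1 against 278, 61.1 and 131 RPKM in AOS (adjusted p 0.15).

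The size of these changes depended on Con library 1, although Con library 2 also lay above each AOS library in the 6 genes wholly below Con, Saa2 and Saa1 among them. Without the third libraries, the list median was -1.31 against Con library 1 and 0.081 against Con library 2. Of 14 tested endotoxin-sensing and NF-kB genes, 12 were negative, 1 (1) lay wholly above Con, 0 (1) wholly below and 0 passed. Cd14, an endotoxin receptor, had 17.4, 1.95 and 10.4 RPKM in Con and 1.46, 2.18 and 1.75 RPKM in AOS. For Cd14, Con library 2 was within the range of the AOS libraries, and Con library 1 was far above it. Con library 1 also lay at -24.6 on the first principal component of the 6 libraries (50.6% of the variance), where Con library 2 lay at 1.83 and AOS libraries 1 and 2 at 14.2 and 9.14.

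**Figure D4:**
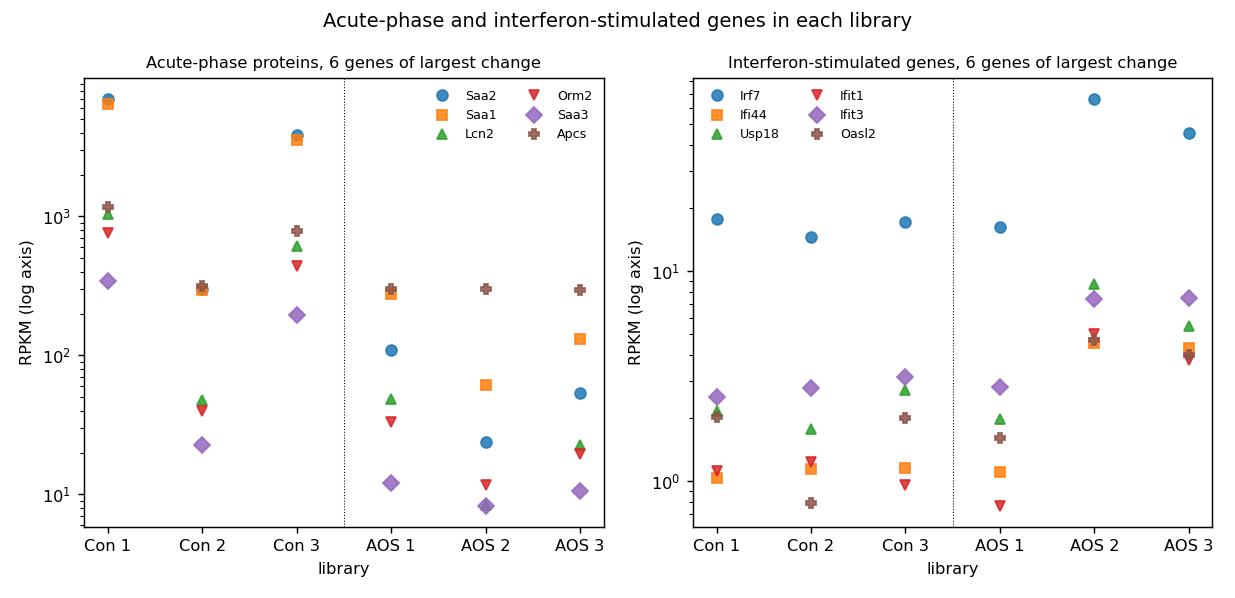
RPKM (log axis) in each of the 6 libraries for the 6 genes of largest absolute change in the acute-phase list and in the interferon list. Con library 1 is highest in each acute-phase gene and Con library 2 far lower, and AOS library 2 exceeds AOS library 1 in each interferon gene; the third libraries sit mostly between.

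A gene of antigen presentation rose. H2-T23, a non-classical class I molecule recognised by natural killer and T cells (chromosome 17, 36029773 to 36032855), had 51.5, 54.8 and 54.2 RPKM in Con and 81.9, 91.3 and 82.1 RPKM in AOS (log2 change 0.66, SE 0.078, limma adjusted p 0.017). Of 18 tested class I and immunoproteasome genes, 1 passed, 16 were positive and 10 (10) lay wholly above Con. H2-T22 (log2 change 0.95, adjusted p 0.058) and H2-Q4 (0.44, adjusted p 0.054) were closest to passing, and class I genes can share reads. Without the third libraries the median was 0.17 in AOS library 1 and 0.41 in AOS library 2, where all genes were at 0.11 and 0.052.

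Of 26 tested interferon-stimulated genes, 0 passed, 25 were positive with a median of 0.37, and 4 (6) lay wholly above Con. Irf7, a transcription factor of the interferon response, had 17.7, 14.6 and 17.1 RPKM in Con and 16.2, 66.2 and 45.3 RPKM in AOS (adjusted p 0.25). The list median was -0.031 in AOS library 1 and 0.66 in AOS library 2. For the 6 tested class II genes, which mark antigen-presenting cells, the order was the reverse, with a median of 0.95 in AOS library 1 and 0.096 in AOS library 2, and 0 passed, with 2 (3) wholly above Con. H2-Eb1 had 9.23 RPKM in AOS library 1 and 1.85 RPKM in AOS library 2.

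Markers of other liver cells did not pass, and Pck1, listed for periportal hepatocytes, was the called gene among the marker lists. Of 11 macrophage and Kupffer cell markers, 11 had a positive change and 0 passed, with summed levels of 132 to 199 RPKM in Con and 164 to 226 RPKM in AOS. Summed erythroid markers ran from 1535 to 2959 RPKM in Con and from 2960.3 to 3838 RPKM in AOS, with 3 of 6 tested genes positive. The part of blood and macrophages in the called genes was not tested. Sums for endothelium were 55.7 to 63.5 RPKM in Con and 61.6 to 71.3 RPKM in AOS, and those for T and natural killer cells stayed under 9 RPKM (8.83 RPKM at most).

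Other lists held no called gene. Of 32 lysosome and autophagy genes, 29 were positive and 16 (18) lay wholly above Con, among them the kinase gene Ulk1 (log2 change 0.53, limma adjusted p 0.059) and Gabarapl1 (0.50, adjusted p 0.060). Their median was 0.22 against Con library 1 and 0.12 against Con library 2, where all genes were at 0.14 and 0.020. Of 40 oxidative phosphorylation genes 34 were positive with a median of 0.097, and 5 (11) lay wholly above Con. Of 49 ribosomal protein genes 29 were positive with a median of 0.020, and 0 (3) lay wholly above Con. The ribosomal protein and antioxidant lists had smaller shares of positive genes than the 68.0% of all genes. So did further lists, among them cholesterol synthesis (8 of 24) and extracellular matrix (9 of 18).

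Of 19 heat shock genes, 16 were negative and 3 (4) lay wholly below Con, led by Hspb1 (66.6, 65.7 and 70.2 RPKM in Con, 22.2, 44.7 and 30.4 RPKM in AOS, adjusted p 0.075). Without the third libraries, the heat shock median was 0.15 against Con library 1 and -0.47 against Con library 2. Of 23 stress response genes, 9 (9) lay wholly below Con and 4 (4) wholly above. Median changes of p53 targets (10 tested), cell cycle genes (8) and extracellular matrix genes (18) were -0.093, -0.027 and 0.0065, with 2 (2), 0 (0) and 4 (4) genes wholly below Con and 1 (1), 0 (1) and 3 (5) wholly above.

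**Figure D5:**
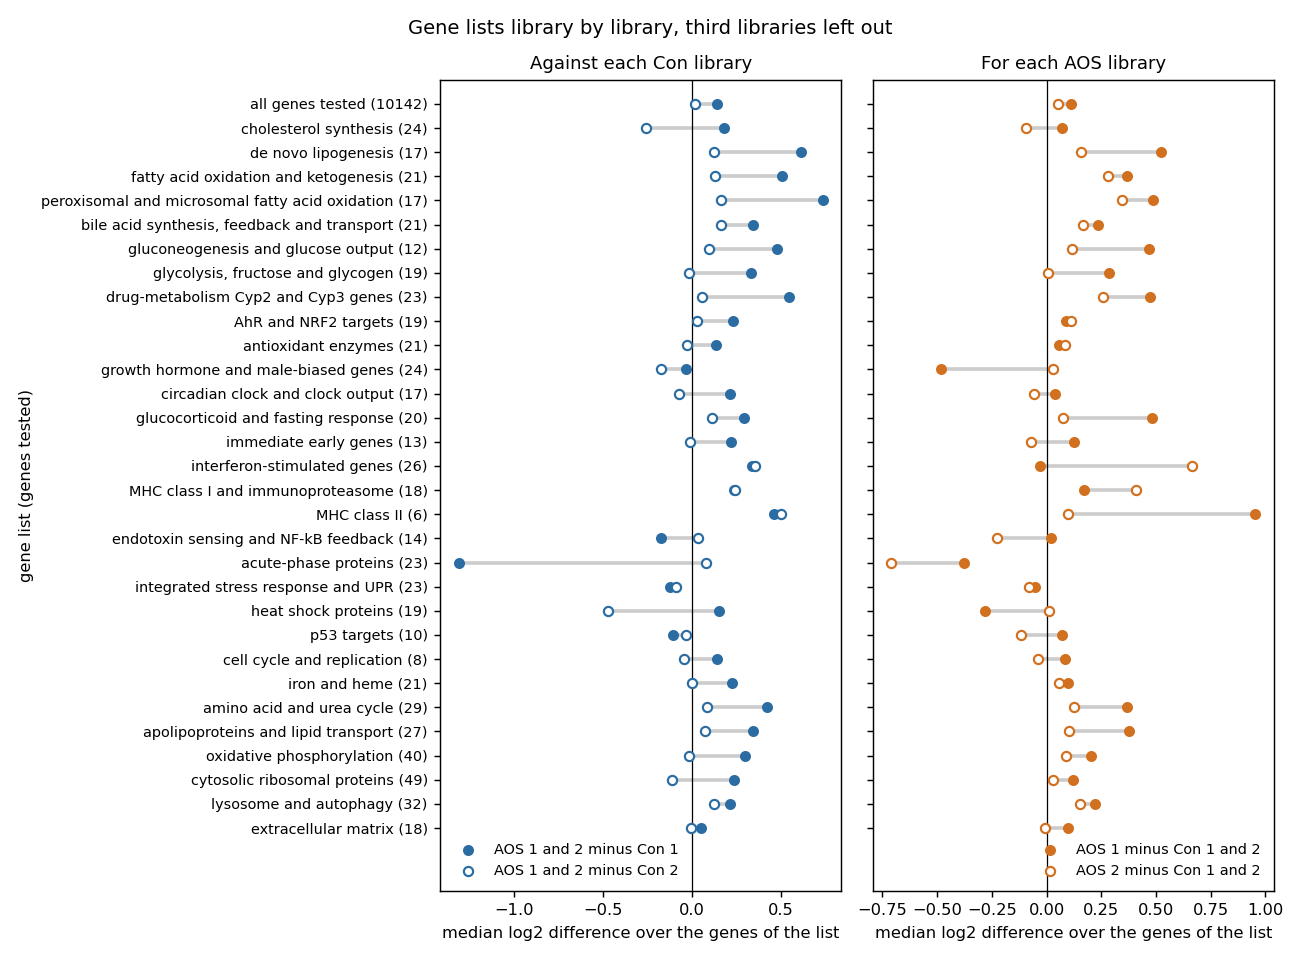
Median log2 difference over the tested genes of each of the 30 lists and over all genes, without the third libraries. Left, AOS libraries 1 and 2 against Con library 1 (filled) or Con library 2 (open); right, AOS library 1 (filled) or 2 (open) against Con libraries 1 and 2. Acute-phase genes lie at -1.31 against Con library 1 and 0.081 against Con library 2.

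The remaining called genes were smaller in change or less known in liver. Ip6k2, an inositol phosphate kinase (log2 change 0.65), Them7, of a thioesterase family (0.91), and Lpin2, a phosphatidate phosphatase (0.73), rose, as did Wsb1, Fbxo21, Tcp11l2, Tmem56, Mmd, Slc17a1, Mov10 and Ceacam1, with log2 changes of 0.48 to 0.67. Gm6851, a processed pseudogene (chromosome 7, 40190937 to 40191331), was listed at 0 in the 3 Con libraries and had 1.46, 2.14 and 2.33 RPKM in AOS. It reached the filter through the AOS libraries alone, so it had to differ to be tested at all, and with 1 RPKM required in every library it was not tested. Tubb6, a beta-tubulin, fell from 6.51, 6.56 and 6.62 RPKM to 3.08, 3.31 and 3.01 RPKM, and Ppan, a factor of ribosome assembly, from 10.6, 9.79 and 10.6 RPKM to 6.51, 6.42 and 6.20 RPKM. Fam47e, 2200002D01Rik, Sfi1, Chid1 and Lacc1 fell by 0.49 to 0.71 on the log2 scale. Exons of 2200002D01Rik overlap those of Yif1b, and whether reads were counted by strand is not given in the sources used here. Overlapping exons are also annotated for Slc7a2 (Gm26584), Acmsd (2900009J06Rik), Ppan (Gm23008, Gm24067), Sfi1 (Drg1, Gm11399), Mmd (Gm45716, Gm45883), Chid1 (Tspan4) and Lacc1 (Ccdc122).

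The same agent was also given to STZ mice, which asks whether AOS acts alike with and without diabetes. The difference of the AOS effects (STZ+AOS minus STZ, less AOS minus Con) gave 0 of 10142 called genes (0%) in limma, with 428 genes at an unadjusted p under 0.05, and 0 without the third AOS and Con libraries. STZ+AOS against STZ, which shares no library with AOS against Con, gave 0 called genes as well (431 at an unadjusted p under 0.05). A missing call does not show that effects are alike, since STZ libraries differed widely. Of the 41 genes, 30 (73.2%) had the same sign in STZ+AOS against STZ, where 54.7% of all genes did. In A10-FMT against Con-FMT, where the microbiota donors and not the sampled mice had received AOS, 28 of the 41 (68.3%) had the same sign as in AOS against Con, where 50.9% of all genes did, and 0 were called.

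Values of single genes in the STZ groups differed far more between libraries. Abcg8 had 47.4, 30.9 and 24.8 RPKM in STZ and 33.9, 35.8 and 77.9 RPKM in STZ+AOS. Hamp2 had 129, 25.3 and 8.21 RPKM in STZ and 243, 86.0 and 44.7 RPKM in STZ+AOS, a log2 change of 1.65 with overlapping groups (adjusted p 0.92). Egr1 was the called gene whose groups did not overlap here either, in the same direction, with 20.5, 23.6 and 155 RPKM in STZ and 13.99, 8.62 and 12.3 RPKM in STZ+AOS (log2 change -1.81, adjusted p 0.92). Pck1 had 2549, 2603 and 1400 RPKM in STZ and 1870, 2526 and 1861 RPKM in STZ+AOS, a log2 change of -0.026. The difference of AOS effects was -0.85 (SE 0.33) for Pck1, -1.47 (SE 1.15) for Hamp2 and -0.41 (SE 0.40) for Abcg8, with adjusted p of 0.997, 0.998 and 0.998.

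The sum of RPKM over all genes was 772447 ± 30398 in Con and 734633 ± 14865 in AOS (mean ± SD, n = 3 libraries), which did not overlap (exact permutation test, two-sided, p = 0.1, the smallest that 3 against 3 allows). Without the 10 highest genes it was 500087 ± 3063 and 494445 ± 9826 (exact permutation test, two-sided, p = 0.5).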

How the data were processed

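Liver RNA of 18 libraries (6 groups of 3) was sequenced by the authors on an Illumina instrument. They deposited 1 RPKM value per gene symbol and library, with reads scaled to transcript length and mapped reads. The methods name SOAPaligner, whereas the submitters' processing notes name Bowtie 0.12.2 and mm10, and which of these made the table is not settled. Of 19057 symbols, 26 looked like dates and 3 were repeated. Nothing was rescaled in the main analysis. The filter kept genes that reached 1 RPKM in 3 or more of the 6 AOS and Con libraries, and log2 was taken after adding 1.

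The 6 libraries entered a linear model in limma (version 3.58.1, R version 4.3.3; eBayes with trend, two-sided), with Benjamini-Hochberg adjustment across the tested genes, and genes were called at an adjusted p under 0.05. The difference of AOS effects used the 12 libraries of AOS, Con, STZ and STZ+AOS. The labels do not say that libraries of a group come from separate animals, so p-values measure the spread between libraries, which may be technical.

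Named genes were the 10 rising and 10 falling called genes of smallest p with a change of at least 1.5-fold and no overlap, up to 3 called genes per list, and Alb, Apoa1 and Ttr; others are named with their list or as remaining called genes. The members, the 30 gene lists and the marker lists were chosen with earlier results of these data known. Positions are from GENCODE M21 and sequences from RefSeq (GRCm38.p6), which held 32 of the 41 called genes. The fit and the weighted-mean measure were tested on simulated data. Alternatives covered scaling, pseudocount, filter, trend, weights, a replicate block, single libraries left out, all 18 libraries and thresholds; leaving out library 3 of both groups was added after the data were seen. Tests on read counts were not used, since the values are RPKM. Absolute depth is unknown, so the sampling error near 1 RPKM could not be given. Values of some list members are not reported here.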

Additional observations from a re-analysis of the deposited data

How the results depend on the processing

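The number of called genes was not stable. The main count of 41 (25 higher, 16 lower) became 92 (44 and 48) with median-ratio scaling, 89 (41 and 48) with quantile normalization and 84 (37 and 47) with median centring. It was 43 without trend, 42 with a pseudocount of 0.1 and 43 with 1 RPKM required in every library. Without the filter it was 19 (13 and 6), and with all 18 libraries in 1 fit 1 (0 and 1). Array weights, whose estimation stopped before it converged, gave 5095 (3285 and 1810), with a weight of 38.1 on Con library 3 and of 0.222 to 2.42 on the others. An adjusted p under 0.1 gave 211 (145 and 66). The limits of the study (adjusted p of 0.001 or less, absolute log2 change of 1 or more) gave 0 (0 and 0). They were applied to the limma results, whereas the study used DEGseq, which was not run here. Leaving out single libraries gave 1 to 215 genes, 1 to 131 higher and 0 to 84 lower. Without library 3 of both groups, chosen after the data were seen, the count was 0 (0 and 0), also with median-ratio scaling and in 1 fit of the other 16 libraries. Causes of these shifts were not tested.

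The replicate block, by the numbers in the labels, gave 24 genes (14 and 10) and 0 for the difference of AOS effects. Deviations of same-numbered libraries correlated at -0.0036, 0.0049 and -0.047 for numbers 1, 2 and 3. Whether same-numbered libraries shared a batch was not tested. The difference of AOS effects gave 0 genes in the settings tried, except 1 without STZ library 3 and 1 without STZ+AOS library 3 (range 0 to 1). The difference in summed RPKM was -37814 and became -5642 without the 10 highest genes. The 27 named genes had the same direction in each of 509 values over 19 settings, which groups without overlap fix in advance where libraries were left out, and 209 of these values no longer passed, 27 of 27 without Con library 3, without library 3 of both groups and with all 18 libraries.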
